A study of Rattus norvegicus with 19 samples.

Results

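Creatine and arginine metabolism was followed here through 8 genes in the renal cortex of diabetic rats: Gatm, Gamt, Slc6a8, Ass1, Asl, Arg2, Ddah1 and Agxt2. They were taken as the probes that carry one of these names on the arrays, which gave 10 of 45598 probes and 8 of the 24217 genes that were tested. All 8 genes passed the filter on dim probes. Each of the 10 probes was well above background on all 19 arrays and saturated on none.

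RNA of 19 male Crl:CD (SD) rats was measured, with 1 single-colour Agilent array per rat. The 7 DKD+enarodustat rats received 65 mg/kg of streptozotocin intravenously and, from grouping 7 days later, feed that contained enarodustat at 0.01% (w/w). Enarodustat blocks prolyl hydroxylases, and thereby slows the breakdown of hypoxia-inducible factor (HIF). The 7 DKD rats received the same injection and normal feed, and the 5 Sham rats received vehicle and normal feed. Kidneys were taken 14 days after grouping, and the age of the rats is not given in the sources used here. Streptozotocin kills the insulin-producing beta cells, so the diabetic groups model toxin-induced insulin deficiency at an early stage, and they were matched to each other on glycaemia and weight before the feeding began.

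The kidney stands at the start of creatine synthesis and is the main source of circulating arginine. In proximal tubule cells the mitochondrial enzyme encoded by Gatm joins arginine and glycine to guanidinoacetate, which Gamt methylates to creatine, largely in the liver, and Slc6a8 carries creatine into cells. The same tubule takes up citrulline and turns it into arginine through Ass1 and Asl. Arginine is split by the mitochondrial arginase Arg2, and some of its methylated forms inhibit nitric oxide synthases. Ddah1 breaks down asymmetric dimethylarginine, and the mitochondrial aminotransferase Agxt2 acts on methylarginines, symmetric dimethylarginine among them.

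Because enarodustat acts on HIF, the stretch of 250 bases before the annotated start of each gene was searched for ACGTG on both strands. ACGTG is a form of the core of the HIF binding motif, and the other form, GCGTG, was not searched. The RefSeq promoter table of the GRCr8 build held 7 of the 8 genes, and ACGTG was present in 2 of them, against 16.6% of the 33469 promoters in the table. Both stretches are shown 5′ to 3′ on the strand of the gene, with the motif in capitals. CACGT is the same motif read on the opposite strand.

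Gatm: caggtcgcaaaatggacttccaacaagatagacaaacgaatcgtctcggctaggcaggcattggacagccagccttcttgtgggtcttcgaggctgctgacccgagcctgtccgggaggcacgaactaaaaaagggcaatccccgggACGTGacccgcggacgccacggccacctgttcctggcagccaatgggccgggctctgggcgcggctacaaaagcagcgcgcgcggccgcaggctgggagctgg
Asl: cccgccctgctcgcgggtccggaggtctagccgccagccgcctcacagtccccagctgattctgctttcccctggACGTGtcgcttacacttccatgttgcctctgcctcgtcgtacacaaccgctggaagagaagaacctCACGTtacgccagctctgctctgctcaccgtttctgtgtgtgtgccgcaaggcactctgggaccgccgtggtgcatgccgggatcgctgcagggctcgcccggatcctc

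The Gatm stretch lies at chr3:130129094-130129343 on the minus strand and the Asl stretch at chr12:32295658-32295907 on the plus strand. A match describes these letters and shows neither binding nor a cause. The letters AGGTCA, the core of many nuclear receptor motifs, were found on either strand in 0 of the 7 stretches and in 14.1% of all promoters, which says only that they are not in these windows.

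Levels are given as log2 of the processed signal minus the 75th percentile of the array, so that a level of 0 is the 75th percentile itself. Differences are means of one group minus the other with the standard error of a limma fit over all 24217 genes, and adjusted p is its Benjamini-Hochberg value over those genes, with 0.05 as the threshold. Each probe is compared with itself across rats, since levels of different probes share no scale. The tissue is bulk cortex, where fewer cells of a type and less RNA per cell cannot be told apart. There were 3 slides, and arrays of every group were on each of them. All DKD+enarodustat arrays were in slide row 2, all Sham arrays in row 1, and of the DKD arrays only replicates 2 and 4 in row 2. Row 1 had 64.9% of probes well above background and row 2 58.3%. DKD+enarodustat and Sham share no row, so that for this pair the row and the group cannot be told apart within a row.

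The creatine-forming enzyme Gatm, the methylarginine aminotransferase Agxt2 and the citrulline-using enzyme Ass1 were lower in DKD than in Sham. Of the 8 genes 0 were higher and 3 lower past the threshold, where 8.02% of all genes tested were higher and 9.07% lower (17.1% in both directions). The 8 genes were chosen with earlier results of these data known, so such counts beside the shares are a description. The median difference of the 8 was -0.15, and that of all genes was -0.02. Between DKD+enarodustat and DKD 0 of the 8 passed, and the same 3 genes were lower in DKD+enarodustat than in Sham.

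**Figure D1:**
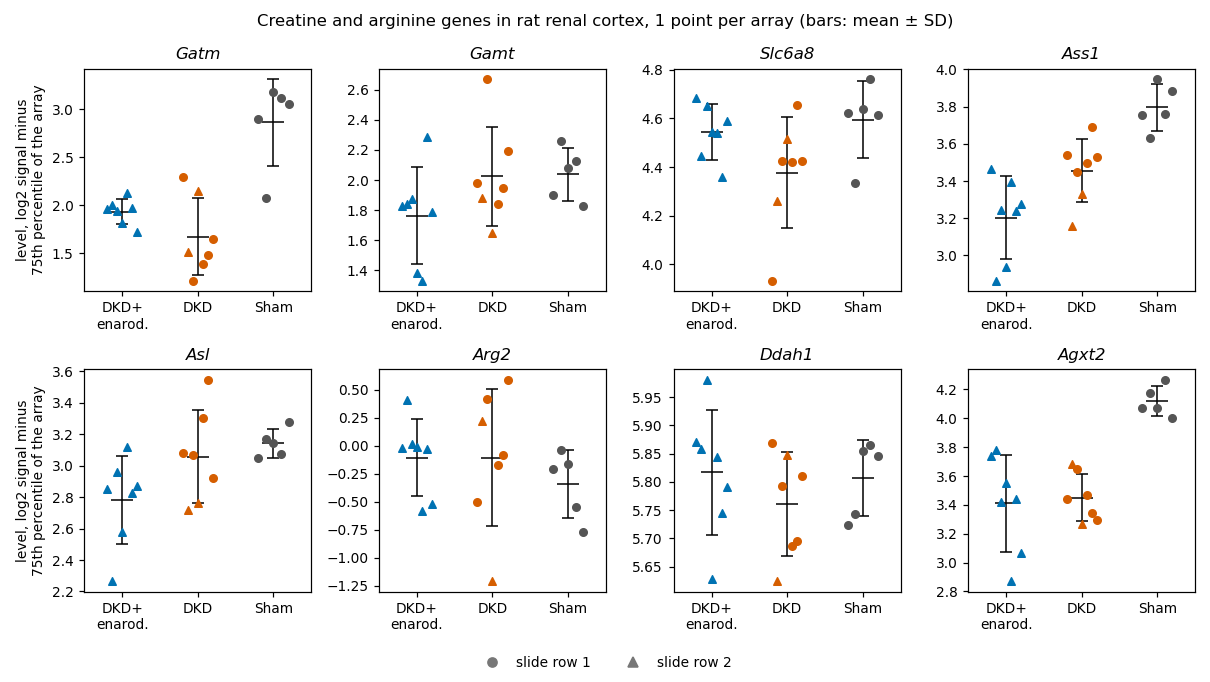
Levels of the 8 genes (log2 signal minus the 75th percentile of the array) on each of the 19 arrays, with DKD+enarodustat on the left, DKD in the middle and Sham on the right of each panel. Circles are arrays of slide row 1 and triangles arrays of row 2, bars are the mean ± SD, and each panel has its own axis. The Agxt2 levels of all diabetic rats lie under the 5 Sham values, whereas 1 Sham array lies among the diabetic arrays for Gatm.

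Gatm, which carries out the first step of creatine synthesis, had its lowest level at 1.72, its median at 1.96 and its highest at 2.13 in DKD+enarodustat. In DKD the lowest, median and highest levels were 1.21, 1.51 and 2.30. The 5 Sham arrays gave 2.90, 2.08, 3.18, 3.12 and 3.05. The levels of 4 Sham arrays lay above all diabetic arrays, and Sham replicate 2 lay below DKD replicates 1 and 4 and below 1 DKD+enarodustat array. The group means were 1.93 ± 0.13 in DKD+enarodustat (SD, n = 7), 1.67 ± 0.40 in DKD (SD, n = 7) and 2.87 ± 0.45 in Sham (SD, n = 5).

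The Gatm difference of DKD from Sham was -1.20 ± 0.20 (SE, adjusted p = 0.000371), a level 2.29-fold lower, with a 95% interval of -1.61 to -0.79. A larger difference in size was found for 3.20% of all genes. Within slides 1, 2 and 3 it was -0.59, -1.47 and -1.55, and within slide row 1 it was -1.26 (adjusted p = 0.0113). The smallest of these came from slide 1, which holds both the lowest Sham array, replicate 2, and the highest DKD array, replicate 1. Over all slides the difference without Sham replicate 2 was -1.39. What made the slides differ was not tested. The probe that reports Gatm lies on chromosome 3 from 109382662 to 109382721 in rn4, the build of the file headers.

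Between DKD+enarodustat and DKD the Gatm difference was 0.26 ± 0.18 (adjusted p = 0.584, 95% interval -0.11 to 0.64). DKD+enarodustat rats had closely spaced levels, all inside the range of the DKD rats. Against Sham, the DKD+enarodustat level was lower by 1.91-fold (difference -0.93 ± 0.20, adjusted p = 0.00181). It was -0.51, -1.28 and -1.11 within slides 1, 2 and 3, and -1.16 (adjusted p = 0.0676) in the fit with a term for slide row.

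Gamt, the methyltransferase that completes creatine, averaged 1.76 ± 0.32 in DKD+enarodustat, 2.02 ± 0.33 in DKD and 2.04 ± 0.18 in Sham (SD, n = 7, 7 and 5). Its lowest and highest levels were 1.33 and 2.29 in DKD+enarodustat, 1.65 and 2.68 in DKD, and 1.83 and 2.26 in Sham, so that all groups overlapped. The difference of DKD from Sham was -0.02 ± 0.17, with an adjusted p of 0.976 and a 95% interval of -0.37 to 0.34. DKD+enarodustat differed from DKD by -0.26 ± 0.15 (adjusted p = 0.503) and from Sham by -0.28 ± 0.17 (adjusted p = 0.261).

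Slc6a8, the sodium- and chloride-coupled creatine transporter, ranged over 4.36 to 4.68 in DKD+enarodustat, 3.93 to 4.65 in DKD and 4.33 to 4.76 in Sham, with overlap of all groups. Its probe was spotted 10 times on each array, and the SD of log2 signal among those spots was 0.0230 to 0.0748, against 0.17 among rats within groups. The difference of DKD from Sham was -0.22 ± 0.10 and did not pass (adjusted p = 0.171). It passed with normexp background correction and quantile normalisation (-0.33, adjusted p = 0.0219) and in the authors' deposited value table (-0.29, adjusted p = 0.00985). DKD+enarodustat differed from DKD by 0.17 ± 0.09 (adjusted p = 0.474) and from Sham by -0.05 ± 0.10 (adjusted p = 0.79).

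Ass1, argininosuccinate synthase, joins citrulline and aspartate and is the entry to arginine formation in the proximal tubule. Its lowest, median and highest levels were 2.87, 3.25 and 3.46 in DKD+enarodustat and 3.16, 3.49 and 3.69 in DKD, and the Sham arrays gave 3.75, 3.63, 3.95, 3.76 and 3.88. Every DKD+enarodustat array lay below every Sham array, and among DKD arrays replicate 6 alone lay above the lowest Sham array. The means were 3.20 ± 0.22 in DKD+enarodustat, 3.46 ± 0.17 in DKD and 3.80 ± 0.12 in Sham (SD, n = 7, 7 and 5).

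The 60-base Ass1 probe covers 1353 bases of rn4, from 10620727 to 10622079 on chromosome 3, so that its letters are not contiguous in the genome and a spliced transcript is what it matches in full. It is printed because the Ass1 result rests on it alone.
Ass1 probe: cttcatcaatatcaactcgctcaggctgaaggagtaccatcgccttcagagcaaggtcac

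The Ass1 difference of DKD from Sham was -0.34 ± 0.11 (adjusted p = 0.0379), 1.27-fold lower in DKD. This call is near the threshold. It was lost with median centring (-0.35, adjusted p = 0.0847), with no filter on dim probes (-0.34, adjusted p = 0.0694), when slide row was added as a term (-0.25, adjusted p = 0.137), without the DKD arrays of slide row 2 (-0.25, adjusted p = 0.146) and in 8 of the 19 fits that left out 1 array, where adjusted p ran from 0.0247 to 0.104. Those arrays were Sham replicates 1, 3, 4 and 5 and DKD replicates 2, 3, 4 and 5. The other fits include the 7 without a DKD+enarodustat array, which leave this difference as it was. Within slides 1, 2 and 3 the difference was -0.34, -0.47 and -0.31, and within slide row 1 it was -0.25 (adjusted p = 0.0637).

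DKD+enarodustat differed from DKD in Ass1 by -0.25 ± 0.10, with an adjusted p of 0.244 and a 95% interval of -0.46 to -0.04. In the authors' deposited value table the difference was -0.26 and passed (adjusted p = 0.0419). The DKD arrays in slide row 2 had Ass1 levels of 3.16 and 3.33, against 3.45 to 3.69 for the DKD arrays in row 1, and within row 2 the difference of DKD+enarodustat from DKD was -0.04. Against Sham, DKD+enarodustat had Ass1 1.51-fold lower (-0.59 ± 0.11, adjusted p = 0.000608). That difference was -0.53, -0.76 and -0.58 within slides 1, 2 and 3, and -0.29 (adjusted p = 0.417) in the fit with a term for slide row.

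Asl, argininosuccinate lyase, releases arginine in the step after Ass1. Levels ranged from 2.26 to 3.12 in DKD+enarodustat, from 2.72 to 3.55 in DKD and from 3.05 to 3.28 in Sham. The Sham arrays stood close together, replicate 5 alone of the DKD+enarodustat arrays reached their range, and all groups overlapped. DKD differed from Sham by -0.09 ± 0.15 (adjusted p = 0.786), and DKD+enarodustat differed from DKD by -0.28 ± 0.13 (adjusted p = 0.374). DKD+enarodustat differed from Sham by -0.36 ± 0.15 (adjusted p = 0.0772). This difference passed with replicate number as a block (-0.41, adjusted p = 0.0174), with slide as a block (-0.43, adjusted p = 0.0167), with normexp and quantile normalisation (-0.46, adjusted p = 0.0151) and in the authors' deposited value table (-0.44, adjusted p = 0.00226). A term for slide row turned it to 0.08 (adjusted p = 0.888). The DKD arrays in slide row 2 had the lowest Asl levels of their group, 2.72 and 2.77, and the part of the row in the Asl and Ass1 differences was not tested beyond these values.

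Arg2, the mitochondrial arginase, had the widest spread of the 8 genes, with a residual SD of 0.46. Its levels ran from -0.59 to 0.41 in DKD+enarodustat, from -1.21 to 0.59 in DKD and from -0.77 to -0.04 in Sham. DKD replicate 4 was the lowest array and DKD replicate 7 the highest, and the Sham levels lay inside the DKD range. The difference of DKD from Sham was 0.24 ± 0.26 (adjusted p = 0.63, 95% interval -0.30 to 0.78), that of DKD+enarodustat from DKD was -0.00065 ± 0.23 (adjusted p = 0.999) and that of DKD+enarodustat from Sham was 0.24 ± 0.26 (adjusted p = 0.574). The 95% interval between DKD+enarodustat and DKD ran from -0.49 to 0.49, which covers differences as large as that of Ass1 between DKD and Sham.

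Ddah1, which hydrolyses asymmetric dimethylarginine to citrulline, had the narrowest spread, with a residual SD of 0.09, and 6.10% of all genes had a smaller one. Levels were 5.63 to 5.98 in DKD+enarodustat, 5.62 to 5.87 in DKD and 5.72 to 5.87 in Sham, and the groups overlapped. DKD differed from Sham by -0.05 ± 0.06 (adjusted p = 0.724, 95% interval -0.18 to 0.09) and DKD+enarodustat from DKD by 0.06 ± 0.06 (adjusted p = 0.786). With normexp background correction and quantile normalisation together DKD was lower than Sham by a difference of -0.18 (adjusted p = 0.00841), and in the authors' deposited value table by -0.17 (adjusted p = 0.00786). Quantile normalisation alone gave -0.12 and did not pass (adjusted p = 0.151). For DKD+enarodustat against Sham the difference was 0.01 ± 0.06 (adjusted p = 0.941), and the sign turned to -0.15 with normexp and quantile normalisation (adjusted p = 0.0172). A second Ddah1 probe gave -0.18 ± 0.08 for DKD against Sham (adjusted p = 0.146 over 30259 probes). For DKD+enarodustat against Sham that probe gave -0.21 ± 0.08 (adjusted p = 0.0728).

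Agxt2 transfers the amino group of methylarginines, symmetric dimethylarginine among them, and of beta-aminoisobutyrate. The lowest, median and highest levels were 2.87, 3.44 and 3.78 in DKD+enarodustat and 3.27, 3.44 and 3.68 in DKD, and the Sham arrays gave 4.07, 4.17, 4.07, 4.27 and 4.01. No diabetic array reached the lowest Sham array. Agxt2 was the only one of the 8 genes whose DKD and Sham arrays did not overlap, where 5.83% of all genes lay lower in DKD without overlap. Between DKD+enarodustat and Sham, Agxt2 and Ass1 were lower without overlap, against 8.87% of all genes. All 8 genes overlapped between DKD+enarodustat and DKD, where 1.25% of all genes did not.

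DKD had Agxt2 1.59-fold lower than Sham, a difference of -0.67 ± 0.14 (adjusted p = 0.00228, 95% interval -0.95 to -0.38). It was -0.56, -0.71 and -0.64 within slides 1, 2 and 3 and -0.68 within slide row 1 (adjusted p = 0.00129). DKD+enarodustat differed from DKD by -0.04 ± 0.12 (adjusted p = 0.966) and from Sham by -0.71 ± 0.14 (adjusted p = 0.000912), 1.63-fold lower. Within slides 1, 2 and 3 the difference of DKD+enarodustat from Sham was -0.36, -0.68 and -0.88, and it was -0.74 (adjusted p = 0.0992) in the fit with a term for slide row. A second, dimmer Agxt2 probe did not pass. It gave -0.46 ± 0.22 for DKD against Sham (adjusted p = 0.169) and -0.47 ± 0.22 for DKD+enarodustat against Sham (adjusted p = 0.125). The brighter probe lies on chromosome 2 from 59754640 to 59754699 in rn4 and the dimmer one from 59749508 to 59749567.

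**Figure D2:**
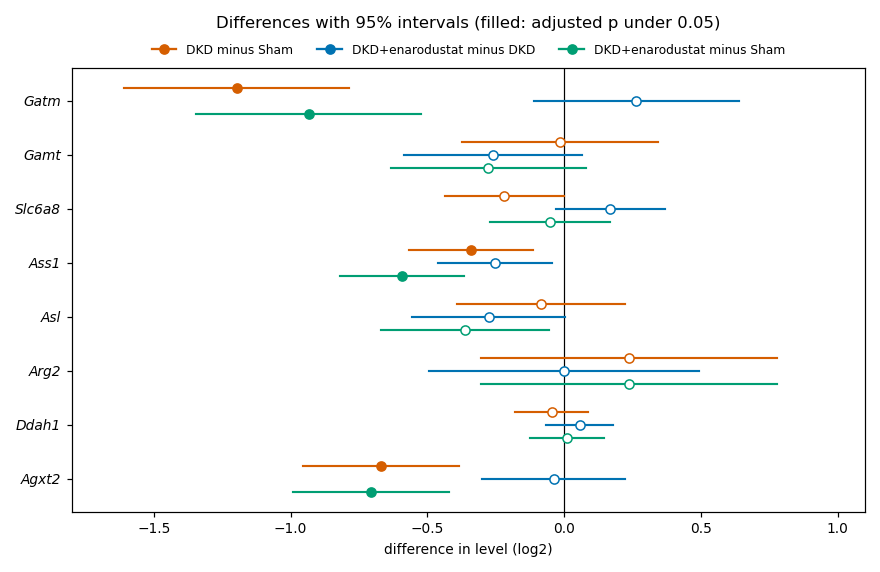
Differences in level (log2) of the 8 genes with 95% intervals, for DKD minus Sham, DKD+enarodustat minus DKD and DKD+enarodustat minus Sham. Filled points passed an adjusted p of 0.05. Gatm, Ass1 and Agxt2 are filled for both comparisons with Sham, and no point is filled for DKD+enarodustat minus DKD.

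In limma, 0 of the 8 genes passed between DKD+enarodustat and DKD, where 2.003% of all genes did (1.07% higher and 0.933% lower). At an unadjusted p under 0.05 there was 1 of the 8, Ass1, which was lower. The median difference of the 8 was -0.02, equal at this rounding to the -0.02 of all genes. The count stayed at 0 in every alternative fit other than that on the authors' deposited value table, where it was 1. This comparison and that of DKD with Sham share the DKD arrays.

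Against Sham, 0 of the 8 were higher in DKD+enarodustat and 3 lower, where 10.03% of all genes were higher and 16.03% lower (26.1% in both directions). The median difference of the 8 was -0.32 and that of all genes -0.04. The 3 were again Gatm, Ass1 and Agxt2, and both comparisons share the Sham arrays. With a term for slide row the count was 0, and that term rests on the DKD arrays alone.

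**Figure D3:**
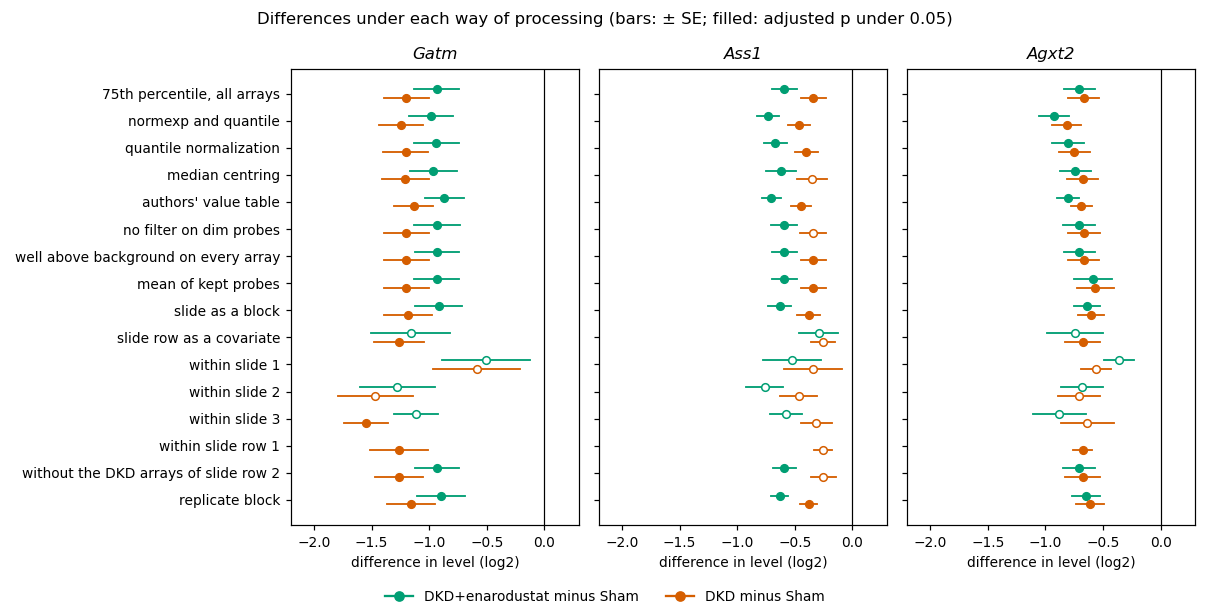
Differences in level (log2) of Gatm, Ass1 and Agxt2 under each way of processing, with bars of ± SE. Green is DKD+enarodustat minus Sham, orange is DKD minus Sham, and filled points passed an adjusted p of 0.05. All points lie left of 0, but each gene has open points: for DKD+enarodustat minus Sham with slide row as a covariate and within each slide, and for DKD minus Sham within 2 slides for Gatm, within 3 for Agxt2 and in 8 settings for Ass1.

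The genes whose levels lay nearest to those of Gatm and Agxt2 were sought among 14383 named genes, by the root mean square distance over the 19 arrays after each gene was centred on its own mean. Nearest to Gatm were Trib1, a pseudokinase that binds ubiquitin ligases, at 0.28, Tmem37 at 0.29 and Fhit, a diadenosine triphosphate hydrolase, at 0.30, where Gatm itself varied by 0.58. Their differences of DKD from Sham were -1.18, -1.27 and -1.22. Nearest to Agxt2, which varied by 0.37, were Atp11a, a phospholipid flippase, at 0.16, Kctd15 at 0.17 and Smarcd3, a chromatin remodelling subunit, at 0.18. Their differences of DKD from Sham were -0.66, -0.75 and -0.55. The distance includes the group differences, so genes chosen by it have differences near those of Gatm and Agxt2 by the choice itself.

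Around the 8 genes, 6 lists of related genes held 61 members, of which 57 were tested. Ckmt2, Cps1, Nos2 and Slc7a2 were not tested. The lists too were chosen with earlier results of these data known. Between DKD and Sham 7 of the tested genes were higher and 11 lower, where 8.02% of all genes were higher and 9.07% lower, and these shares stand beside each list below. Between DKD+enarodustat and DKD 1 was higher, where 1.07% of all genes were. Against Sham 7 were higher and 15 lower in DKD+enarodustat, where 10.03% of all genes were higher and 16.03% lower. With a term for slide row 3 list genes passed in that comparison, where 4.26% of all genes passed.

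Among creatine kinases and transporters of creatine or creatinine, 2 of 5 were lower in DKD than in Sham (9.07% of all genes) and 0 higher, and both are transporters of the tubule. Slc22a2, the organic cation transporter of the basolateral membrane that takes up creatinine, averaged 2.05 in DKD and 4.05 in Sham, a difference of -2.00 ± 0.22 (adjusted p = 9.15e-06). Slc16a12, which lets creatine and guanidinoacetate leave cells, averaged -2.51 in DKD and -1.43 in Sham, a difference of -1.08 ± 0.13 (adjusted p = 2.73e-05). Neither gene had overlapping groups, where 5.83% of all genes lay lower without overlap. In DKD+enarodustat against Sham they were again lower, by differences of -1.82 ± 0.22 and -0.99 ± 0.13, and a term for slide row lost the Slc16a12 call (-0.75, adjusted p = 0.0746). The brain-type creatine kinase Ckb did not pass (0.32 ± 0.13, adjusted p = 0.0986).

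Of the 15 tested genes of the urea cycle and of arginine supply or use, 5 were higher and 2 lower in DKD than in Sham, against 8.02% and 9.07% of all genes. The lower ones were mitochondrial carriers: Slc25a13, which exports the aspartate that Ass1 uses, with a difference of -0.63 ± 0.08 (adjusted p = 2.17e-05), and Slc25a15, the ornithine carrier, with -0.41 ± 0.08 (adjusted p = 0.00151). Nags, the source of N-acetylglutamate, averaged -4.15 in DKD and -6.64 in Sham (difference 2.49 ± 0.40, adjusted p = 0.000325). Pycr1, the last enzyme of proline synthesis, averaged -5.69 in DKD and -6.75 in Sham (difference 1.07 ± 0.20, adjusted p = 0.00145). Both are faint, and with normexp and quantile normalisation their differences were 0.76 and 0.20. Azin2 and Prodh were higher too.

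Slc25a13 was the only tested gene of the 6 lists past the threshold between DKD+enarodustat and DKD. It averaged 2.89 in DKD+enarodustat and 2.60 in DKD, a difference of 0.29 ± 0.07 (adjusted p = 0.0401), and the groups overlapped. The call was lost in 13 of the 19 fits that left out 1 array, where adjusted p ran from 0.0278 to 0.0817, and when slide row was added as a term (0.39, adjusted p = 0.136). It was lost too by normexp and quantile normalisation (adjusted p = 0.0563), by quantile normalisation alone (0.0578), with median centring (0.219), with no filter on dim probes (0.0889) and without the DKD arrays of slide row 2 (0.106). With replicate number as a block 3 genes of the 6 lists passed in this comparison, 1 higher and 2 lower, where 2.66% of all genes passed.

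Guanidinoacetate methylation draws on S-adenosylmethionine, and of the 6 genes of that methyl supply 2 were higher and 2 lower in DKD than in Sham, against 8.02% and 9.07% of all genes. Bhmt, which remethylates homocysteine with betaine, averaged 4.96 in DKD and 3.34 in Sham (adjusted p = 5.85e-05), and no arrays overlapped, where 4.85% of all genes lay higher without overlap. Mat1a, the liver-type S-adenosylmethionine synthetase, had a difference of 1.23 ± 0.33 (adjusted p = 0.0137) at a low level, 0.27 with normexp and quantile normalisation. No Mat1a probe was well above background on every array. The widely expressed synthetase Mat2a had -0.97 ± 0.22 (adjusted p = 0.00557), and Ahcy, which clears the inhibitory product of methyl transfer, had -0.41 ± 0.12 (adjusted p = 0.022). A term for slide row lost the calls of Mat1a (adjusted p = 0.0556) and Ahcy (adjusted p = 0.0861). In DKD+enarodustat against Sham the differences were 1.81 ± 0.22 for Bhmt, 1.05 ± 0.33 for Mat1a, -1.04 ± 0.22 for Mat2a and -0.55 ± 0.12 for Ahcy. With a term for slide row the last 3 did not pass (0.20, -0.84 and -0.20), and by normexp and quantile normalisation that of Mat1a was 0.20.

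Of 14 tested genes of nitric oxide and methylarginine metabolism, 3 were lower in DKD than in Sham (9.07% of all genes) and 0 higher. All 3 make or recycle tetrahydrobiopterin, a cofactor of nitric oxide synthases and of aromatic amino acid hydroxylases: Spr (-0.57 ± 0.11, adjusted p = 0.00149), Pts (-0.37 ± 0.11, adjusted p = 0.0225) and Qdpr (-0.24 ± 0.08, adjusted p = 0.0459). Gch1, which also serves tetrahydrobiopterin synthesis, was tested and did not pass between DKD and Sham. With replicate number as a block the calls of Pts (adjusted p = 0.07) and Qdpr (adjusted p = 0.0683) were lost, and leaving out 1 array lost that of Qdpr in 13 of 19 fits and that of Pts in 2. A term for slide row lost both (adjusted p = 0.138 for Qdpr and 0.0814 for Pts), and median centring (adjusted p = 0.106) and no filter on dim probes (adjusted p = 0.0915) lost that of Qdpr. In DKD+enarodustat against Sham all 3 were lower, with differences of -0.50 for Spr, -0.57 for Pts and -0.30 for Qdpr, and the arginine methyltransferase Prmt3 was lower too (-0.52 ± 0.11, adjusted p = 0.00185). The Prmt3 difference was -0.17 in the authors' deposited value table and -0.16 by normexp and quantile normalisation. With a term for slide row none of the 4 passed in this comparison, with adjusted p of 0.255 for Spr, 0.336 for Pts, 0.61 for Qdpr and 0.803 for Prmt3 (-0.092). The endothelial synthase Nos3 (-0.23 ± 0.17, adjusted p = 0.433) and Ddah2 (-0.08 ± 0.14, adjusted p = 0.769) did not pass between DKD and Sham.

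Among basic amino acid transporters 1 of 7 passed between DKD and Sham, where 17.1% of all genes did. Slc3a1, the heavy chain of the apical cystine and arginine transporter, averaged 6.00 in DKD and 6.55 in Sham (difference -0.55 ± 0.13, adjusted p = 0.00677), while its light chain Slc7a9 did not pass (-0.06 ± 0.12, adjusted p = 0.842). In DKD+enarodustat against Sham, Slc3a1 was lower (-0.58 ± 0.13), and a term for slide row lost that call (-0.26, adjusted p = 0.599). Slc7a6 was higher in the same comparison (0.49 ± 0.16, adjusted p = 0.0309). That call was lost in 7 of 19 fits that left out 1 array, by normexp and quantile normalisation (0.18, adjusted p = 0.0818), by quantile normalisation alone (adjusted p = 0.0556), with median centring (adjusted p = 0.0583) and with a term for slide row (0.076, adjusted p = 0.911). Slc7a3 is among the 7 genes counted as higher, but it met the filter on dim probes only through diabetic arrays: it was well above background on 3 DKD+enarodustat, 2 DKD and 0 Sham arrays, which is given as a description. Of 10 polyamine genes 1 passed between DKD and Sham, where 17.1% of all genes did: the antizyme Oaz1 (-0.15 ± 0.05, adjusted p = 0.0455, and 0.0507 with replicate number as a block). This call was lost in 13 of 19 fits that left out 1 array, with median centring (adjusted p = 0.186), with no filter on dim probes (adjusted p = 0.126) and with a term for slide row (adjusted p = 0.083), while quantile normalisation gave -0.25. Paox, a polyamine oxidase, passed between DKD+enarodustat and Sham (-0.20 ± 0.06, adjusted p = 0.0259). That call was lost in 4 of those fits, by quantile normalisation (adjusted p = 0.0618), with median centring (adjusted p = 0.0662) and with a term for slide row (-0.11, adjusted p = 0.691).

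**Figure D4:**
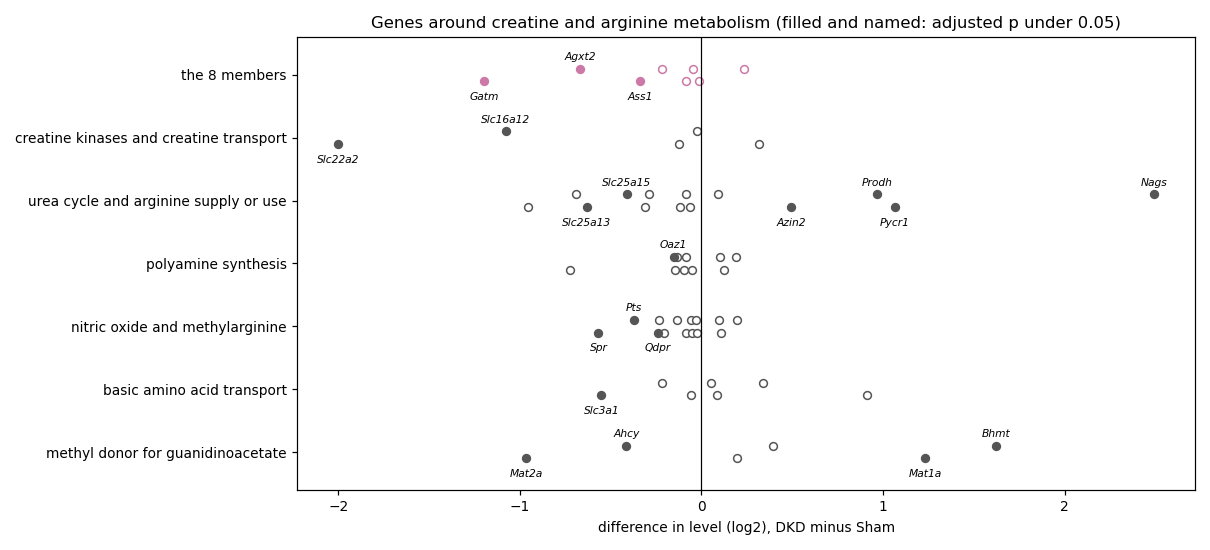
Differences of DKD minus Sham (log2) for the 8 genes and for 56 of the 57 tested genes of the 6 lists around them, 1 point a gene. Filled and named points passed an adjusted p of 0.05. The points farthest left are Slc22a2, Gatm and Slc16a12, and those farthest right are Nags and Bhmt.

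Markers of the cells that hold these enzymes, and of other cell types, were read beside the results. Each count for DKD against Sham below stands beside 8.02% of all genes higher and 9.07% lower. The sums add the signals of different probes, which share no scale, so the brightest probes weigh most. They describe signal and not amounts of a cell type. The 6 markers of the early proximal tubule summed to 110 to 137 in DKD+enarodustat, 114 to 148 in DKD and 137 to 158 in Sham, as multiples of the 75th percentile of the array. Between DKD and Sham 2 of them were higher (Cubn, 0.51, and Slc5a12, 0.66) and 2 lower (Lrp2, -0.62, and Slc34a1, -0.26). The 6 markers of the straight proximal tubule summed to 4.13 to 10.1 in DKD+enarodustat, 4.79 to 9.08 in DKD and 5.81 to 9.08 in Sham, with 2 higher and 1 lower in DKD than in Sham. No marker of either list was at background on any array. The sum of 9 tubular injury genes was 14.0 to 50.4 in DKD+enarodustat, 17.8 to 48.3 in DKD and 8.14 to 11.3 in Sham, with 6 higher and 1 lower in DKD than in Sham. The 6 markers of the thick ascending limb summed to 68.7 to 115 in DKD+enarodustat, 56.5 to 109 in DKD and 121 to 145 in Sham, with 4 lower in DKD than in Sham. The 6 tested adipocyte markers summed to 0.744 to 6.01 in DKD+enarodustat, 0.713 to 14.4 in DKD and 0.417 to 0.707 in Sham, with 3 higher in DKD than in Sham, and the adipocyte marker Plin1 was well above background on at most 3 arrays and not tested. The 5 podocyte markers summed to 6.48 to 10.4 in DKD+enarodustat, 7.44 to 10.1 in DKD and 10.3 to 12.6 in Sham, with 2 lower in DKD than in Sham. The 7 collecting duct markers summed to 56.6 to 83.2 in DKD+enarodustat, 58.5 to 73.1 in DKD and 47.5 to 61.7 in Sham, with 2 higher (Aqp2, 0.61, and Aqp3, 0.36) and 1 lower (Slc26a4, -0.73). Of the endothelial, leukocyte, fibroblast and matrix, distal convoluted tubule, erythroid and skeletal muscle lists the sums overlapped between DKD and Sham, and at most 1 gene of each passed. The part of these shifts in the lower Gatm, Agxt2 and Ass1 was not tested.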

How the data were processed

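Per the file headers, Agilent Feature Extraction 11.5.1.1 made the deposited Cy3 intensity values, which are background-subtracted and detrended per spot. A second deposited table holds the authors' own log2 levels of 22739 probes, all of them found among the scanner probe names. Its medians per array were 8.13 to 8.21, and its correlation with scanner values after normexp and quantile steps was 0.9973 to 0.9993. Its method and centring are not given in the sources used here. The submitters' processing notes also name limma.

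Log2 of the processed intensity minus each array's 75th percentile was taken, outlier spots were left out and spots of a probe averaged. Probes well above background on at least 5 of 19 arrays were kept, and each gene was read from its brightest kept probe. Probes took the gene names of a RefSeq table of the GRCr8 build, 21109 by accession and 1977 through another probe of the gene, and 22512 kept the name in the file. Probe positions refer to rn4 in the file headers, and no rn4 annotation was used here. The groups, from the labels, entered 1 fit in limma 3.58.1 under R 4.3.3 (lmFit and eBayes, 16 residual degrees of freedom, two-sided, Benjamini-Hochberg over all 24217 genes), and the script was tested on simulated data. The number of arrays limits the precision.

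Same-numbered arrays of different groups lay on 1 slide, and their deviations from the group means correlated at 0.13 to 0.59 over genes in all 17 pairs, against 0.06 to 0.52 for other numbers on the same slide. The medians were 0.23 for the same number and 0.25 for other numbers on the same slide. Of 15 arrays, 7 correlated best with an array of their own number in another group. A pairing by number could thus not be told apart from a shared slide. The numbers were taken as pairing arrays in an alternative fit only. The other alternatives were other normalisations, filters, probe rules, slide and slide row, and leaving out each array. The 8 genes and all lists were chosen with earlier results of these data known. From each list, up to 4 genes past the threshold with the smallest adjusted p in a comparison are named, and for members past it with a difference of at least 0.5 the 3 nearest genes. Ckb, Gch1, Nos3, Ddah2, Slc7a9, Azin2 and Prodh were named after their values were seen. 1 list gene is counted but not reported here by name.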

Additional observations from a re-analysis of the deposited data

Results flagged for a closer look

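Of 24 sets of levels examined, 8 genes in 3 groups each, 1 held an array far from the rest of its group, where chance gives about 1 in 20. The Gatm level of Sham replicate 2 was 2.08, and the nearest of the other Sham arrays stood at 2.90. The difference of DKD from Sham was -1.39 without this array and -1.20 with it, and that of DKD+enarodustat from Sham was -1.13 without it and -0.93 with it. What sets this array apart was not tested.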

How the results depend on the processing

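The number of arrays and the tie between slide row and group limit these results, and within 1 slide a group has at most 3 arrays. Slide 3 holds 1 Sham array, which is assumed there to vary like the other groups. Gatm, Ass1 and Agxt2 stayed lower than in Sham in all 15 other settings for DKD, in all 14 for DKD+enarodustat and in all 19 fits without 1 array, though not always past the threshold. Not all of these fits could change a difference. Leaving out arrays of the group outside a comparison leaves its difference as it was, and so do filters that keep the same probe. For DKD against Sham the settings by slide row all give the same difference. The reversals below concern differences that did not pass in the fit of the report.

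Members past the threshold numbered 3 for DKD against Sham: 5 by normexp and quantile, 5 in the authors' value table, 0 within slides 1 and 2 and 1 within slide 3. DKD+enarodustat against Sham also gave 3: 5 by normexp and quantile, 5 in the authors' value table, 0 with a slide row term and 0 within each slide. DKD+enarodustat against DKD gave 0, and 1 in the authors' value table. The share of all genes that passed rose too: in the authors' value table it was 31.5% for DKD against Sham (17.1% in the report), 44.9% for DKD+enarodustat against Sham (26.1%) and 9.67% between DKD+enarodustat and DKD (2.003%), and by normexp and quantile 18.9% and 29.7% for both comparisons with Sham. Over the whole table DKD against Sham gave 4140 genes, with 0, 2 and 142 within slides 1, 2 and 3. DKD+enarodustat against DKD gave 485, with 1775 in the authors' value table, 291 with median centring, 284 with no filter on dim probes, 915 with slide as a block, 84 with a slide row term, 1, 0 and 0 within slides 1, 2 and 3, and 12 within slide row 2. Between DKD+enarodustat and Sham it was 6311, with 10744 with no filter, 1031 with a slide row term and 14, 46 and 338 within slides 1, 2 and 3. Leaving out 1 array gave 2 to 3 members (DKD against Sham), 3 to 4 members (DKD+enarodustat against Sham) and 286 to 497 genes (DKD+enarodustat against DKD).

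Of the 57 list genes, 18 passed between DKD and Sham, with 0, 0 and 1 within slides 1, 2 and 3 and 11 within slide row 1. Of the same genes 1 passed between DKD+enarodustat and DKD, with 6 in the authors' value table, 2 by normexp and quantile, 2 with probes above background on every array, 3 with the replicate block, 3 with slide as a block, and 0 with median centring, no filter, quantile alone, a slide row term, within each slide and within slide row 2. Leaving out 1 array gave 0 to 1. In the same comparison 9.67% of all genes passed in the authors' value table and 2.40% by normexp and quantile. It was 3.28% with probes above background on every array, 2.66% with the replicate block and 3.78% with slide as a block. A count of 22 passed between DKD+enarodustat and Sham, with 3 with a slide row term and 0, 1 and 2 within slides 1, 2 and 3. The replicate block changed the calls of Asl, Pts, Qdpr and Oaz1 among the named genes of the main comparisons. The share of calls that were higher was 46.9% for DKD against Sham and 34.7% by normexp and quantile, and 53.4% for DKD+enarodustat against DKD, 34.3% in the authors' value table and 72.9% with no filter. It was 38.5% for DKD+enarodustat against Sham and 64.4% with no filter.

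The sign of DKD against Sham turned for Gamt (0.088 with a slide row term, within slide row 1 and without the DKD arrays of row 2, 0.058 and 0.17 within slides 2 and 3), Asl (0.041 in those same 3 row settings), Arg2 (-0.021 and -0.045 within slides 1 and 2) and, within slide 1, Ddah1 (0.012) and its second probe (0.014). The sign of DKD+enarodustat against DKD turned for Arg2 (0.0049 by normexp and quantile, 0.024 by quantile alone, 0.39 with a slide row term and within row 2, 0.33 and 0.40 within slides 1 and 2), Asl (0.041 with a slide row term and within row 2), Agxt2 (0.20 and 0.026 within slides 1 and 2), Ddah1 (-0.015 within slide 2) and Slc6a8 (-0.0046 within slide 3). The second Agxt2 probe gave 0.022 by normexp and quantile, 0.034 by quantile alone, 0.34 with a slide row term and within row 2, and 0.46 and 0.042 within slides 1 and 2. The second Ddah1 probe gave 0.0034 by normexp and quantile, 0.0098 by quantile alone, 0.0082 in the authors' value table and 0.056 within slide 3. The sign of DKD+enarodustat against Sham turned for Ddah1 (-0.15 by normexp and quantile, -0.14 in the authors' value table, -0.10 by quantile alone, -0.098 with the mean of kept probes, -0.022 with median centring, -0.056 and -0.053 within slides 2 and 3), for Gamt (0.084), Asl (0.082) and the second Agxt2 probe (0.014) with a slide row term, and for Slc6a8 within slide 1 (0.087). Without 1 array, Gamt ran from -0.12 to 0.047 for DKD against Sham, and Ddah1 from -0.017 to 0.042 between DKD+enarodustat and Sham. The ranges between DKD+enarodustat and DKD were -0.19 to 0.12 for Arg2, -0.10 to 0.051 for Agxt2, -0.17 to 0.11 for its second probe and -0.067 to 0.0056 for the second Ddah1 probe. The causes were not tested.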
